A study of Mus musculus with 5 samples.

Results

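Superoxide and hydrogen peroxide are the first products of partly reduced oxygen in cells, and the mouse genome encodes several enzyme families that remove them. The data described here are the RNA levels of 10 of these genes, Sod1, Sod2, Sod3, Cat, Gpx1, Gpx3, Gpx4, Prdx1, Prdx5 and Prdx6, in single cells of mouse lung. Members were taken by exact gene symbol from the 42454 deposited features, and all 10 were found. Each was measured in all 5 libraries.

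The libraries came from C57BL/6J mice and were made with the droplet-based Chromium system, which tags 1 end of each RNA molecule, so that a unique molecular count does not grow with transcript length. Newborn mice breathed room air or more than 95% oxygen (hyperoxia) for 3 days and then room air, and whole-lung suspensions without sorting were taken at postnatal day (pnd) 7 and pnd60, which gave the air pnd7, hyperoxia pnd7, air pnd60 and hyperoxia pnd60 libraries. These unsorted libraries had been made for an earlier study of the same laboratory, and the number of mice behind each is not given in the sources used here. The fifth library held cells of hyperoxia-exposed mice at pnd7 that were sorted for C12FDG fluorescence, from the pooled lungs of 3 mice. C12FDG is a substrate that fluoresces after cleavage by β-galactosidase, whose activity is used as a mark of senescent cells, and macrophages also hold much of this lysosomal enzyme. The sort is therefore a gate on enzyme activity and not on a cell type.

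Superoxide dismutases turn superoxide into hydrogen peroxide. Sod1 encodes the copper and zinc enzyme of the cytosol, Sod2 the manganese enzyme of mitochondria and Sod3 the secreted enzyme of the extracellular matrix. Hydrogen peroxide is then removed by catalase (Cat) in peroxisomes, by glutathione peroxidases, which use glutathione, and by peroxiredoxins, most of which are recharged by thioredoxin. The lung is known for high levels of Sod3 and for Prdx6, which also acts on the phospholipids of surfactant.

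After the filter on genes and mitochondrial counts, 2308, 1246, 493, 4397 and 4756 cells were left in the air pnd7, hyperoxia pnd7, C12FDG-sorted, air pnd60 and hyperoxia pnd60 libraries, and library totals ran from 7880365 to 16648251 counts. The median count per cell ran from 2168 in air pnd60 to 15529 in the C12FDG-sorted library. Each condition was 1 library, so no value below has a replicate and no test was made. Intervals are 95% intervals that cover counting error only. For a median over members, the bracketed values are the medians of the members' lower and upper bounds, not an interval of the median. Cells were put into 23 classes by marker genes of known cell types, of which 21 had enough cells to be used, and the C12FDG-sorted library stood apart from the rest, since 412 of its 493 cells were alveolar macrophage-like and 49 were interstitial macrophage-like. Levels are given as counts per 1000000 counts (CPM). The alveolar macrophage markers were there (the 12 alveolar macrophage markers summed to a level of 4324 CPM in the sorted library, against 707 to 2333 in the unsorted libraries), but within alveolar macrophage-like cells their sum was lower in the sorted library, at 5007 CPM, than in air pnd7 (7006), hyperoxia pnd7 (8632), air pnd60 (18219) and hyperoxia pnd60 (21717). At pnd60, B cell-like cells were 28.5% and 26.6% of the air and hyperoxia cells, against 5.24% and 5.70% at pnd7. Erythroid-like cells were 0.0227% and 0.105% at pnd60, against 26.2% and 6.74% at pnd7. In a sum over all cells of a library, fewer cells of a type and less RNA per cell cannot be told apart, so each member is given both for the library and for the cell classes.

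The level of Sod1 over all cells was 172 CPM in air pnd7, 163 in hyperoxia pnd7, 106 in the C12FDG-sorted library, 437 in air pnd60 and 440.3 in hyperoxia pnd60. Sod1 was thus at a like level in air and hyperoxia within each age, higher at pnd60, and lowest in the sorted cells. The corresponding CPM of Sod2 were 91.7, 104, 291, 87.3 and 83.3, so the sorted library alone stood above the others. The CPM of Sod3 were 22.4, 16.9, 0.127, 209 and 194. Sod3, the secreted dismutase, was near absent from the sorted library, where the level stood for 1 count (interval 0.0032 to 0.707 CPM), and that count lay in the only fibroblast-like cell of the library. For the 48 values of members with at least 100 counts the interval was at most 13.8% of the value to either side.

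The cell classes that carried the dismutases differed. Over the unsorted libraries Sod3 had its highest median CPM, 1041, in fibroblast-like cells, followed by 417 in myofibroblast and smooth muscle-like cells and 314 in pericyte-like cells, and its lowest, 2.87, in type II-like cells, a span of 363-fold. The type II-like level rested on 1 and 0 counts in air and hyperoxia pnd7 and on 15 and 21 in air and hyperoxia pnd60. Sod3 counts outside the stroma are not read as expression, as given below, so the span is only a description. The 3 stromal classes overlapped one another in their ranges over libraries. The range of pericyte-like cells only just missed that of the next class, neutrophil-like cells. The lowest pericyte-like value was 45.8 CPM in hyperoxia pnd7. The highest neutrophil-like value was 45.5 CPM in air pnd60, on 3 counts (interval 9.38 to 133), so the 2 classes are not set apart by it. Fibroblast-like cells held 89.8% of all Sod3 counts in air pnd60 and 87.5% in hyperoxia pnd60, but 38.3% in air pnd7 and 55.0% in hyperoxia pnd7. Their median joined levels of 94.7 and 74.9 CPM at pnd7 in air and hyperoxia with 2058 and 1988 at pnd60. In air pnd7 pericyte-like cells were at a like level of Sod3, 92.7 CPM. Sod2 was flatter, from 43.7 CPM in large vessel endothelial-like cells to 231 in ciliated-like cells, a span of 5.29-fold. The ciliated-like value of Sod2 did not overlap the range of the next class, nonclassical monocyte-like cells at 130 CPM (112 to 186). By median, Sod1 was led by ciliated-like and type I-like cells, whose order depended on the libraries compared. In hyperoxia pnd7, where ciliated-like cells were too few, type I-like cells (249 CPM) did not lead. Classical monocyte-like cells were at 273 CPM there and general capillary endothelial-like cells at 252. The median of Sod1 was higher in ciliated-like cells (1001 CPM, over air pnd7 and both pnd60 libraries) than in type I-like cells, but at pnd60 type I-like cells had 1198 and 1058 CPM in air and hyperoxia and ciliated-like cells 1024 and 1001, and with at least 50 cells a class type I-like cells ranked first. Classes with under 20 cells in a library, such as neutrophil-like and dendritic cell-like cells at pnd7, have no value there, so their medians rest on pnd60 alone. The ciliated-like cluster also held Cyp2f2, a gene of secretory airway cells, among its leading genes, so it may hold both kinds of airway cell.

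Catalase RNA was at 184 CPM in air pnd7, 149.6 in hyperoxia pnd7, 73.5 in the C12FDG-sorted library, 325 in air pnd60 and 323 in hyperoxia pnd60. Most Cat RNA lay in type II-like cells, which make surfactant: they held between 50.6% and 61.0% of all Cat counts in each unsorted library, while they held 16.3% to 19.0% of all counts. The median CPM of Cat was 803 in type II-like cells (414 to 1046 over libraries), 534 in ciliated-like cells and 238 in type I-like cells. Neutrophil-like cells had the lowest median of Cat, 25.5 CPM, on 1 count in air pnd60 and 4 in hyperoxia pnd60. Their range overlapped that of T cell-like cells, the next class.

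Among the glutathione peroxidases, Gpx1 encodes the enzyme of the cytosol, Gpx3 the secreted enzyme of plasma and extracellular fluid, and Gpx4 the enzyme that reduces lipid peroxides in membranes. Gpx1 was at 489, 485, 842, 619.6 and 669 CPM in air pnd7, hyperoxia pnd7, the C12FDG-sorted library, air pnd60 and hyperoxia pnd60. Gpx3, in the same order, was at 31.4, 44.0, 9.14, 657 and 619 CPM. Gpx4 was at 406, 469.6, 668, 398 and 416 CPM. Of these 3, Gpx3 thus varied most with age and Gpx4 least over the unsorted libraries, and the sorted library was the highest for Gpx1 and Gpx4 and the lowest for Gpx3.

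**Figure D1:**
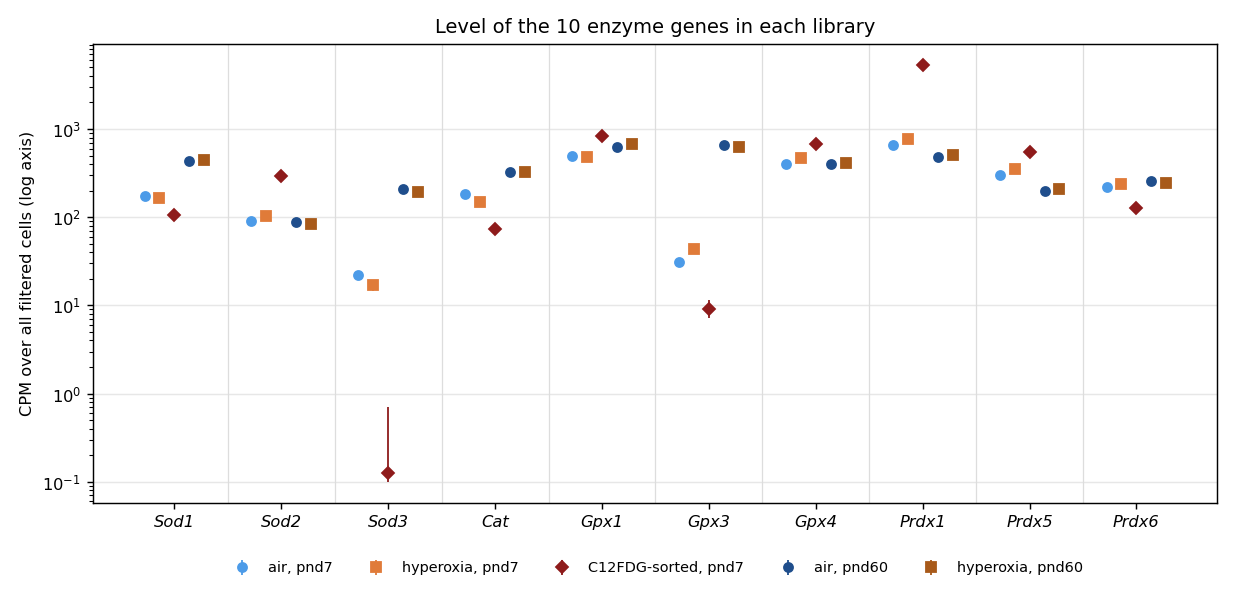
Level of each of the 10 genes in the 5 libraries, in CPM over all filtered cells on a log axis; points are library values and bars 95% Poisson intervals, cut at the axis for Sod3 in the sorted library. Prdx1 in the C12FDG-sorted library (5294 CPM) and Sod3 in the same library (0.127 CPM) are the extremes, and Sod3 and Gpx3 differ most between the ages.

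Gpx1 was a gene of the myeloid classes. Its median CPM was 2949 in nonclassical monocyte-like cells (2623 to 3298) and 2302 in classical monocyte-like cells (2116 to 2338), and neither range overlapped the next class in the order. Dendritic cell-like (1464), alveolar macrophage-like (1376) and interstitial macrophage-like cells (1339) followed with overlapping ranges, and aerocyte endothelial-like cells were lowest at 133, a span of 22.2-fold. Gpx3 had its highest median in fibroblast-like cells, 2985 CPM, but this median joined levels of 178 and 213 at pnd7 with levels of 5758 and 5774 at pnd60. Gpx4 was spread most evenly of all members, from 216 CPM in B cell-like cells to 912 in type I-like cells, a span of 4.23-fold.

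The peroxiredoxins of the list were Prdx1, the typical enzyme of the cytosol, Prdx5, which is found in mitochondria, peroxisomes and cytosol, and Prdx6, which uses glutathione in place of thioredoxin. Prdx1 was at 665 CPM in air pnd7, 769 in hyperoxia pnd7, 5294 in the C12FDG-sorted library, 479.9 in air pnd60 and 501 in hyperoxia pnd60. In that order, Prdx5 was at 304, 352, 544, 201 and 210.4 CPM. Prdx6 was at 218, 236, 128, 260.4 and 244 CPM. Prdx1 was the highest of the 10 genes in the pnd7 libraries and by far so among the sorted cells, whereas Prdx6 was lower there than in any unsorted library.

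By class, Prdx1 was highest in alveolar macrophage-like cells, at a median of 1327 CPM and a narrow range of 1254 to 1442 over the unsorted libraries that did not overlap the next class, ciliated-like cells at 778. Neutrophil-like cells had the lowest Prdx1 level, 73.8 CPM, from 71.8 to 75.8 over the 2 pnd60 libraries, which held 31 and 60 such cells. Prdx5 was led by classical monocyte-like (1228 CPM), nonclassical monocyte-like (988) and neutrophil-like cells (957), whose ranges overlapped, and was lowest in aerocyte endothelial-like cells at 38.7. On pnd60 cells alone, neutrophil-like cells therefore combined the lowest medians of Prdx1 and Cat, both on few counts, with a Prdx5 level near the top of its order. Prdx6 was highest in type I-like cells, the thin cells of the gas exchange surface (1666 CPM, 561 to 2607), next in ciliated-like cells (961, 467 to 1090), and lowest in interstitial macrophage-like cells at 52.7. The 3 peroxiredoxins were thus led by 3 different classes, as were the 3 glutathione peroxidases.

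**Figure D2:**
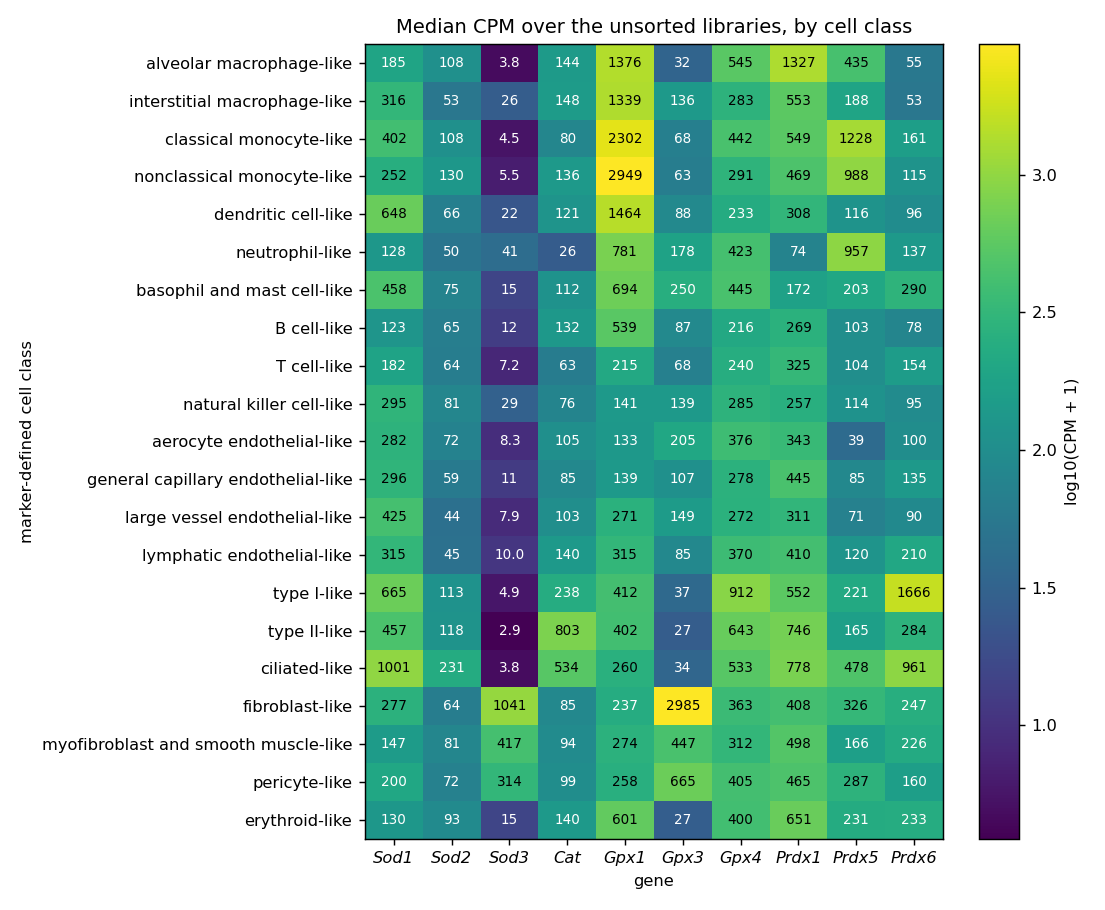
Median CPM of each gene over the unsorted libraries (numbers) in the cell classes; colour is log10(CPM + 1). Sod3 and Gpx3 are led by fibroblast-like cells (1041 and 2985 CPM), Gpx1 by the monocyte-like classes, Prdx1 by alveolar macrophage-like cells (1327), Cat by type II-like cells (803) and Prdx6 by type I-like cells (1666).

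The comparison of hyperoxia with air at pnd7 asks what remained of the exposure after the mice had returned to room air. No member passed 1.5-fold in either direction over all cells. Of 12591 genes with enough counts, 1.53% were at least 1.5-fold higher and 3.3% at least 1.5-fold lower. The median log2 ratio of the 10 members was 0.15 (median bounds 0.06 and 0.22), beside -0.02 over all genes tested. Gpx3 had the highest log2 ratio, 0.49 (0.31 to 0.66), and Gpx4, Prdx1 and Prdx5 had ratios of 0.21 each, Sod2 0.18 and Prdx6 0.12, all with intervals above 0. Sod3 was at -0.41 (-0.65 to -0.17) and Cat at -0.30 (-0.38 to -0.22), and the intervals of Sod1 (-0.08, -0.16 to 0.01) and Gpx1 (-0.01, -0.06 to 0.03) held 0. The spread between libraries of 1 condition was not measured, so how these ratios compare with it is unknown. Fibroblast-like cells held 51.4% and 60.1% of the Gpx3 counts in air and hyperoxia pnd7. Their share of all counts was 9.07% and 12.4%, and their level of Gpx3 was 178 and 213 CPM. Pericyte-like cells were 2.56% and 8.83% of cells and type I-like cells 9.66% and 3.29%, in that order. The part of the make-up of the libraries in these ratios was not tested.

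Within the cell classes at pnd7, 104 pairs of a member and a class had enough counts over 12 classes. Hyperoxia was at least 1.5-fold higher than air in 8 pairs and lower in 8, and their median log2 ratio was 0.12. These were 7.69% of the pairs in each direction, beside 8.26% higher and 12.7% lower of 95756 pairs of any gene and a class, so neither count lay above that of genes at large. Cat was lower past 1.5-fold in 4 of the 11 classes where it could be compared: general capillary endothelial-like cells (80.6 to 47.2 CPM, log2 ratio -0.77), T cell-like cells (-0.85, on 52 counts in air and 21 in hyperoxia), type I-like cells (-0.69) and erythroid-like cells (-0.62). In these classes 9.69%, 14.8%, 13.3% and 30.8% of all genes were lower past that fold, in that order. In type II-like cells, where most Cat RNA lay, the level of Cat was 573 CPM in air and 414 in hyperoxia, a log2 ratio of -0.47 (-0.58 to -0.36). B cell-like cells went the other way, from 70.3 to 116 CPM of Cat (0.72, 0.09 to 1.36). The type I-like cells of air pnd7 were 223 cells with a median of 2075 counts and those of hyperoxia pnd7 were 41 cells with 11648. Type I-like cells of air also held more RNA of the type II gene Sftpc, as given below with Prdx6. Whether the depth gap or this RNA had a part in their Cat ratio was not tested.

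Other members differed in single classes at pnd7. Sod2 was at 57.6 CPM in fibroblast-like cells of air and 95.7 in those of hyperoxia (log2 ratio 0.73, 0.35 to 1.13), Prdx1 was at 476 and 899 in nonclassical monocyte-like cells (0.92, 0.60 to 1.24), and Prdx5 was at 1423 and 2459 in classical monocyte-like cells (0.79, 0.56 to 1.03). The nonclassical monocyte-like cells were 56 in air and 45 in hyperoxia, and the classical ones only 23 and 20. In these 3 classes 5.21%, 8.56% and 9.41% of all genes were at least 1.5-fold higher, in that order. Sod3 was at 92.7 CPM in pericyte-like cells of air and 45.8 in those of hyperoxia (-1.02, -1.56 to -0.49). These were 59 cells with a median of 10074 counts in air and 110 with 4473 in hyperoxia. Over all libraries 65.4% of pericyte-like cells kept their class by their own markers. Whether the make-up of the class had a part in the Sod3 ratio was not tested. For Gpx1, B cell-like cells had 699.9 CPM in air and 1178 in hyperoxia (0.75), which turned to -0.26 when each cell was classed by its own markers. Sod1 in type II-like cells was at 245 and 185 CPM (-0.41, -0.58 to -0.23).

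At pnd60, after weeks in room air, the members' median ratio of hyperoxia to air over all cells was smaller than at pnd7. With 1 library a condition, this difference between the ages was not tested. No member passed 1.5-fold over all cells, where 1.14% of 12928 genes were higher and 0.828% lower. The median of the members was 0.0012 (median bounds -0.05 and 0.05) beside 0.01 over all genes. Gpx1 had the highest ratio, 0.11 (0.07 to 0.15), and Sod3 the lowest, -0.10 (-0.18 to -0.03). Within 19 classes the 173 pairs had a median of -0.00041, with 13 at least 1.5-fold higher and 14 lower, that is 7.51% and 8.09%, beside 9.04% and 8.13% of 123548 pairs of any gene and a class. Fibroblast-like cells, the main source of Gpx3, had 5758 CPM of it in air pnd60 and 5774 in hyperoxia pnd60. Among the pairs past 1.5-fold was Gpx3 in the 20 and 22 myofibroblast and smooth muscle-like cells of air and hyperoxia, at 1907 and 845 CPM.

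Cells sorted for C12FDG were compared with the unsorted cells of hyperoxia pnd7 and of air pnd7, which share the sorted library. Over all cells, Prdx1 was 6.89-fold higher in the sorted library than in hyperoxia pnd7 (log2 ratio 2.78, 2.75 to 2.82), Sod2 2.80-fold (1.48, 1.39 to 1.58), Gpx1 1.73-fold (0.79, 0.75 to 0.84) and Prdx5 1.55-fold (0.63, 0.57 to 0.69). Sod3 (-7.05, -12.36 to -4.56), Gpx3 (-2.27, -2.64 to -1.91), Cat (-1.03, -1.16 to -0.89), Prdx6 (-0.89, -0.99 to -0.78) and Sod1 (-0.62, -0.74 to -0.51) were lower, and Gpx4 was at 0.51 (0.46 to 0.56). So 4 members were higher and 5 lower, where 13.4% and 48.7% of 11340 genes were. The median over all these genes was -0.55, and the median over the members was -0.06 (median bounds -0.14 and 0.03). Scaled by the median of ratios, Sod1 stood at -0.08, Prdx6 at -0.34 and Cat at -0.48, which no longer passed 1.5-fold, and Gpx4 at 1.05, which did. Against air pnd7 the sorted library had 5 members higher (Prdx1 2.99, Sod2 1.66, Prdx5 0.84, Gpx1 0.78 and Gpx4 0.72) and the same 5 lower, beside 13% and 50.1% of all genes. By the median of ratios Sod1 (-0.11) and Prdx6 (-0.18) no longer passed 1.5-fold against air, and Cat was at -0.74.

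These whole-library values compare a library of macrophages with one of all lung cells. In the sorted library, alveolar macrophage-like cells held 93.8% of the Prdx1 counts and 83.8% of all counts. The level within alveolar macrophage-like cells was therefore taken in each library, in 113 cells of air pnd7, 65 of hyperoxia pnd7, 412 of the sorted library, 187 of air pnd60 and 194 of hyperoxia pnd60. Prdx1 in this class was at 1254, 1442, 5925, 1268 and 1386 CPM. All unsorted libraries, at both ages and in both gases, lay within a narrow band for Prdx1, and the sorted cells lay far above it. Sod2 was at 136, 118, 287, 98.4 and 95.1 CPM in these cells, again with only the sorted library apart. The level of Prdx6 was 56.6, 51.0, 98.7, 74.6 and 52.8 CPM.

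Against the alveolar macrophage-like cells of hyperoxia pnd7, the sorted ones had log2 ratios of 2.04 for Prdx1 (1.96 to 2.12), 1.29 for Sod2 (1.003 to 1.58) and 0.95 for Prdx6 (0.52 to 1.42). Gpx1 was lower, at 928 CPM against 1453 (-0.65, -0.73 to -0.56). Of 9 members with enough counts these 3 were higher and 1 lower past 1.5-fold, where 11.3% and 38% of 9820 genes were, and the median over the members was 0.22 beside -0.35 over the genes. For Prdx6 and Gpx1 the sign within the class was opposite to that over all cells. The other members lay within 1.5-fold: Gpx4 at 0.28 (699 against 576 CPM), Prdx5 at 0.22 (570.2 against 488), Gpx3 at 0.02 on 52 and 7 counts, Sod1 at -0.38 and Cat at -0.41. Sod3 had 0 counts in both. Under every alternative setting run for this class Prdx1 stayed between 2.02 and 2.32 and Sod2 between 0.97 and 1.81. The other calls were less firm: Gpx1 was at -0.37 after scaling by the median of ratios and Prdx6 at 0.46 as a mean of each cell's CPM.

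**Figure D3:**
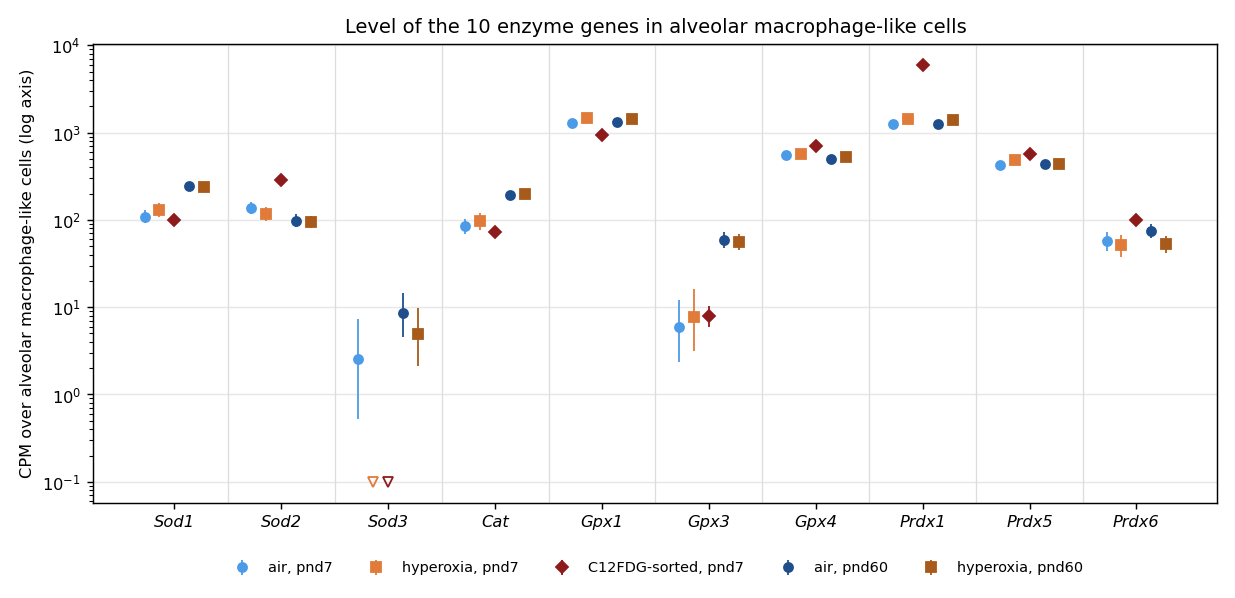
Level of the 10 genes in alveolar macrophage-like cells of each library, in CPM on a log axis; bars are 95% Poisson intervals and open triangles at the foot mark 0 counts. Prdx1 is at 1254 to 1442 CPM in the unsorted libraries and at 5925 in the C12FDG-sorted one, while Gpx1 is lower in the sorted cells (928 CPM) than in the others.

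Against air pnd7, the sorted alveolar macrophage-like cells had 2.24 for Prdx1 (2.17 to 2.32), 1.08 for Sod2 (0.84 to 1.32) and 0.80 for Prdx6 (0.44 to 1.19), and Gpx1 was at -0.46 (-0.54 to -0.38), beside 10% of genes higher and 38.5% lower. The ratio of Prdx6 was not stable here, at 0.03 as a mean of each cell's CPM and -0.64 when cells were thinned to 1000 counts. The interstitial macrophage-like cells, 49 of the sorted library and 21 of air pnd7, moved the same way for these genes: Prdx1 was at 2167 and 757 CPM (1.52), Sod2 at 391 and 128 (1.61), Prdx6 at 155 and 96.1 (0.69) and Gpx1 at 433 and 1386 (-1.68). In the same cells Cat was at 52.5 against 148 CPM (-1.50). For all genes in this class 20.1% were higher and 34.6% lower.

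The alveolar macrophage-like cells of the sorted library formed a cluster nearly of their own, with 368 of its 373 cells, and most of those of the unsorted pnd7 libraries lay in another, with 99 cells of air and 49 of hyperoxia. The cluster of the sorted cells had 9 of the 12 alveolar macrophage markers raised, but Hmox1, Slc7a11, Mt1, Mt2, Mmp12, Gdf15 and Lgals3 led it, among them genes of heme, cystine and metal handling. A further cluster, led by cell division genes such as Top2a and Mki67, held cells of all libraries, 12, 13, 42, 13 and 9 in the usual order. Within it Prdx1 was at 1064, 1136, 5401, 1040 and 771 CPM, and Gpx1 at 1200, 1472, 788, 1520 and 1400 CPM. The difference in Prdx1 was thus also seen where sorted and unsorted cells clustered together, on few cells.

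Prdx1 was also raised cell by cell. With every cell thinned to 1000 counts, the 412 sorted cells had a median of 5 Prdx1 counts (quartiles 3 and 8, highest 21), whereas each unsorted library had a median of 1. At least 5 counts were found in 54.6% of the sorted cells, against 1.77%, 3.08%, 1.07% and 2.06% of the alveolar macrophage-like cells of air pnd7, hyperoxia pnd7, air pnd60 and hyperoxia pnd60. A few unsorted cells reached 7 to 13 counts. The sorted cells spread widely, with no gap between low and high cells.

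**Figure D4:**
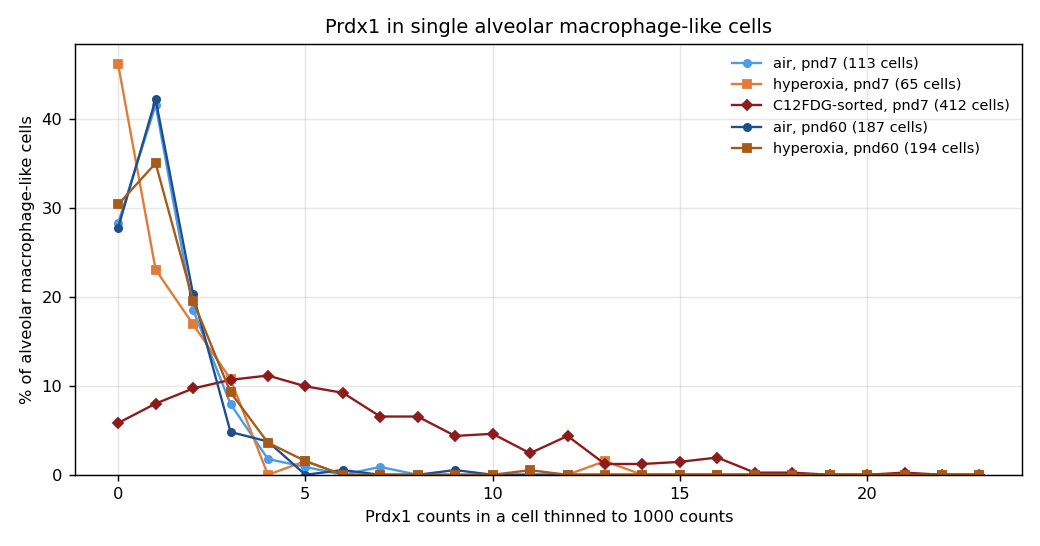
Share of alveolar macrophage-like cells (percent) with each number of Prdx1 counts after thinning every cell to 1000 counts, by library. The unsorted libraries peak at 0 or 1 count, and the 412 C12FDG-sorted cells spread from 0 to 21 with a median of 5.

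Other values moved with the sort in the same cells. Glb1, which encodes the lysosomal β-galactosidase behind the gate, was at 14.1 CPM in the sorted alveolar macrophage-like cells and at 19.97 to 44.1 in the unsorted ones. The summed level of 6 genes of handling stress such as Fos, Jun and Egr1, of which 2 were at 0, was 716 CPM in the sorted cells and 1299 to 2275 in the others, and the summed hemoglobin RNA was 12.4 CPM against 2407 to 7394. The sum of the class's own 12 markers was also lower, as given above. Their part in the Prdx1 and Sod2 differences was not tested, and sorting, the pool of mice and the library cannot be told apart here.

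The genes that recharge these enzymes were taken from a list of 17. Thioredoxin reductase Txnrd1 and sulfiredoxin Srxn1, which restore thioredoxin and overoxidized peroxiredoxins, and Gclc and Gclm, the subunits of the enzyme that starts glutathione synthesis, were all higher in the sorted alveolar macrophage-like cells than in those of hyperoxia pnd7. Txnrd1 was at 619 against 110 CPM (log2 ratio 2.49), Srxn1 at 155 against 18.9 (3.04), Gclc at 231 against 38.8 (2.57) and Gclm at 381 against 67.7 (2.49). Thioredoxin itself, Txn1, was at 1452 against 773 CPM (0.91), and glutathione reductase, Gsr, at 354 against 393 (-0.15). Over all cells of the sorted library, 9 of 16 partner genes with enough counts were at least 1.5-fold higher than in hyperoxia pnd7 and 3 lower, where 13.4% and 48.7% of all genes were. Of the other members of the enzyme families, all 5 with enough counts were lower there, Prdx2 (-1.07), Prdx3 (-0.74), Prdx4 (-1.27), Gpx7 and Gpx8, beside the median of -0.55 over all genes. Within the alveolar macrophage-like cells Prdx3 was at -0.61, but Prdx2 (0.29) and Prdx4 (0.69) were above 0. Among 9 enzymes that make superoxide or peroxide, 4 were higher and 3 lower over all cells, but Cybb, the catalytic subunit of the phagocyte oxidase, was lower within the class, at 993 against 1579 CPM (-0.67). Of 6 genes of selenoprotein synthesis, which supplies the glutathione peroxidases, 1 was higher and 3 were lower over all cells, near the shares of all genes. In both comparisons of hyperoxia with air none of these lists had a gene past 1.5-fold over all cells. Few genes of any kind did: 1.53% were higher and 3.3% lower at pnd7, and 1.14% and 0.828% at pnd60.

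Promoters of the members were searched because Prdx1 was higher together with these partner genes. The core of the antioxidant response element, TGACNNNGC on either strand, to which the factor Nrf2 is known to bind, was looked for from 250 bases before to 50 after the start site in RefSeq sequences of GRCm38.p6. Over all promoters, counted singly and not by gene, 12.4% of 32851 held the motif. A promoter was found for 8 members. Of these, Gpx4 had 4 promoters, none with the motif, and the others 1 each. Counted by gene, 2 of the 8, Prdx1 and Sod1, held it. The 250 bases before each start are shown for both, on the plus strand, with the motif in capitals (it reads on the minus strand as TGACTCAGC in Prdx1, from 133 bases before the start, and as TGACCACGC in Sod1, from 56 bases before it). The Prdx1 sequence lies at chr4:116685349-116685598 and that of Sod1 at chr16:90220512-90220761.
Prdx1: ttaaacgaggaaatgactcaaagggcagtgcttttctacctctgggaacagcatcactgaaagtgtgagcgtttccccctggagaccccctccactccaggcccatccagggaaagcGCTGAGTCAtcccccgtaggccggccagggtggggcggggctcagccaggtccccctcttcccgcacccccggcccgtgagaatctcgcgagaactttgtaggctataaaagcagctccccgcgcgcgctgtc
Sod1: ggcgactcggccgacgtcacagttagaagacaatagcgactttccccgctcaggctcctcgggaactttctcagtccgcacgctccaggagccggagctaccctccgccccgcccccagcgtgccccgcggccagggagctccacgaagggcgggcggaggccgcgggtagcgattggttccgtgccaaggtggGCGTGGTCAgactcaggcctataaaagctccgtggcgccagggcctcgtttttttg
Of the partner genes, 14 of 17 had a promoter in the table and 4 held the motif, Srxn1 (TGACCTAGC), Gclm (TGACGGTGC), Sesn2 (TGACAGAGC) and 1 of those of Txnrd1 (TGACAAAGC). The log2 ratio of the sorted library to hyperoxia pnd7 was 2.78 for Prdx1 and -0.62 for Sod1 (-0.08 by the median of ratios) over all cells. Within alveolar macrophage-like cells it was 2.04 for Prdx1 and -0.38 for Sod1. Whether the motif had a part in any of these ratios was not tested. Sod2 had no match in this window.

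The comparison of pnd60 with pnd7 asks how the genes differ between the growing and the adult lung, and was made once in air and once in hyperoxia. In air, Gpx3 was 20.9-fold higher at pnd60 over all cells (log2 ratio 4.39, 4.26 to 4.52), Sod3 9.31-fold (3.22, 3.06 to 3.38), Sod1 2.55-fold (1.35, 1.28 to 1.41) and Cat 1.76-fold (0.82, 0.75 to 0.88), and Prdx5 was lower (-0.60, -0.67 to -0.54). In hyperoxia the ratios were 3.82 for Gpx3, 3.52 for Sod3, 1.43 for Sod1 and 1.11 for Cat, and Prdx5 (-0.74) and Prdx1 (-0.62) were lower. In air 4 members were higher and 1 lower past 1.5-fold, where 31.4% and 17% of 13003 genes were, and in hyperoxia 4 higher and 2 lower, where 35.3% and 17.4% of 12923 were. The members' medians were 0.30 and 0.26, beside 0.23 and 0.29 over all genes. With all deposited barcodes the sign turned for Prdx5 in air (0.08) and Prdx1 in hyperoxia (0.06), and also for Gpx1, from 0.34 to -0.32 in air and from 0.46 to -0.30 in hyperoxia. Cat in air was at 0.44 as a mean of each cell's CPM, while Gpx3, Sod3 and Sod1 stayed past 1.5-fold under all settings.

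Within cell classes, all members but Gpx1 and Prdx6 passed 1.5-fold in 1 direction only. In air, 123 pairs of a member and 1 of 13 classes could be compared, of which 46 were at least 1.5-fold higher at pnd60 and 23 lower. In hyperoxia 44 of 115 pairs over 12 classes were higher and 30 lower. These were 37.4% and 18.7% of the pairs in air, beside 32.7% and 18.9% of 104125 pairs of any gene and a class, and 38.3% and 26.1% in hyperoxia, beside 35.3% and 18.7% of 97104. Of the higher pairs, Gpx3 made up 13 in air and 12 in hyperoxia, and Sod3 6 and 7. They include classes outside the stroma, where the counts of both genes are not read as expression, as given below. Sod1 was higher in 12 of 13 classes in air and 10 of 12 in hyperoxia and lower in none, with type I-like cells at 272 and 1198 CPM in air and T cell-like cells at 51.6 and 305. The type I-like cells of air were 223 at pnd7, with a median of 2075 counts, and 41 at pnd60, with 5512. They also differed in RNA of Sftpc, as given below with Prdx6. Over all libraries 67.2% of type I-like cells kept their class by their own markers. The part of these gaps in their Sod1 ratio was not tested. Cat was higher in 8 of 13 and 10 of 12 classes and lower in none, and type II-like cells had 573 and 1046 CPM of it in air and 414 and 1033 in hyperoxia. Prdx1 was lower in 8 of 13 and 8 of 12 classes and higher in none, for example from 621 to 273 CPM in general capillary endothelial-like cells of air. In alveolar macrophage-like cells, by contrast, Prdx1 had ratios of 0.02 and -0.06.

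Prdx5 was lower in 7 of 13 classes in air and 10 of 12 in hyperoxia, and in the stroma fibroblast-like cells had 516 and 123 CPM of Prdx5 in air (-2.07) and 529 and 137 in hyperoxia (-1.95). The gene was near level in alveolar macrophage-like cells, at 424 and 438 CPM in air. Sod2 was lower in 2 of 13 and 6 of 12 classes and higher in none, and Gpx4 in 1 of 13 and 1 of 12. For Gpx1 the classes parted, with fibroblast-like cells higher (1.04 in air and 1.08 in hyperoxia) and B cell-like (-0.89 and -1.76) and general capillary endothelial-like cells lower (-0.86 and -1.12). At pnd7 the Gpx1 ratio of hyperoxia to air in B cell-like cells turned with the way cells were classed, as given above. The B cell-like values here carry that uncertainty. For Prdx6 the classes parted too. Type I-like cells were at 561 and 2494 CPM in air (2.15) and at 839 and 2607 in hyperoxia (1.64). General capillary endothelial-like cells were at -0.90 and -1.10. Sftpc, the surfactant gene of type II cells, was in turn at 71257 and 39873 CPM in the type I-like cells of the air and hyperoxia pnd7 libraries and at 5420 and 4281 in those of pnd60, and its part in the Prdx6 difference was not tested.

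**Figure D5:**
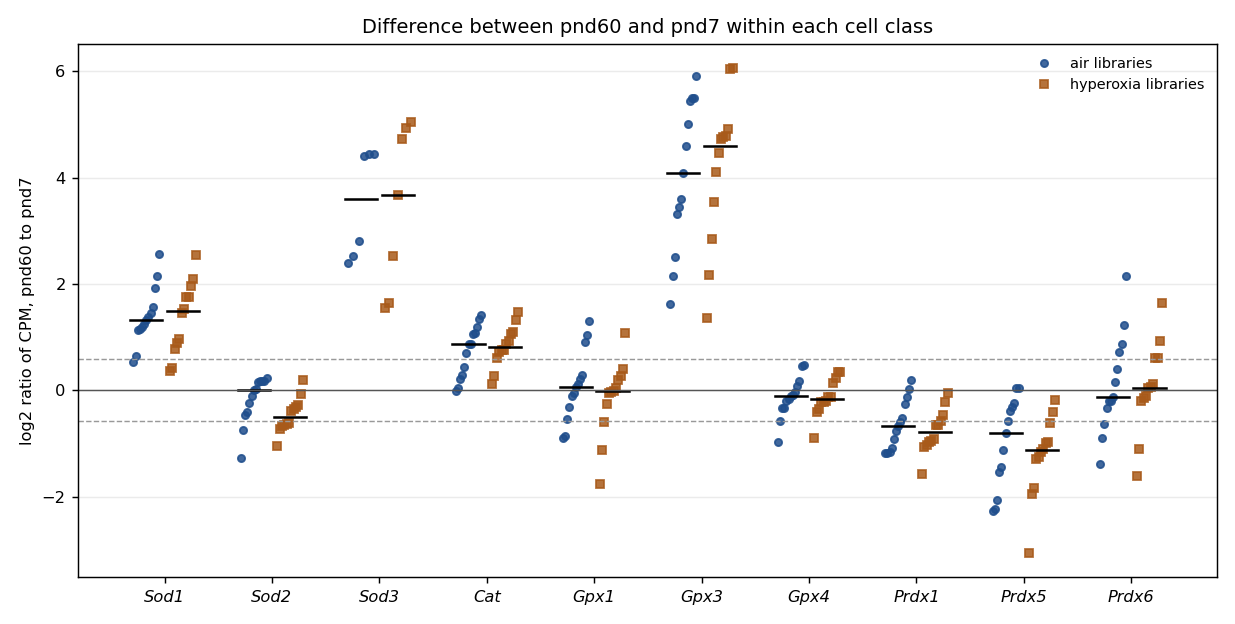
log2 ratio of pnd60 to pnd7 CPM for each gene in each cell class with enough counts, in the air (circles) and hyperoxia (squares) libraries; black bars are medians over classes and dashed lines mark 1.5-fold. Points of Sod1, Sod3, Cat and Gpx3 lie above 0 or near it, those of Prdx1 and Prdx5 mostly below it, and those of Gpx1 and Prdx6 on both sides.

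Gpx3 was higher at pnd60 in all 13 classes in air and all 12 in hyperoxia, and Sod3 in all 6 and all 7 that had enough counts. In fibroblast-like cells Sod3 was at 94.7 and 2058 CPM in air and at 74.9 and 1988 in hyperoxia, and Gpx3 was at 178 and 5758 and at 213 and 5774. The fibroblast-like cells of the ages lay in different clusters, that of pnd60 led by Inmt, Gpx3, Prelp and Sod3, so kinds of fibroblast and the level within them cannot be told apart. In the classes outside the stroma the RNA of fibroblasts moved with both genes. B cell-like cells had 0 and 2.58 CPM of Gpx3 at pnd7 and 220.4 and 171 at pnd60, and Inmt, a marker gene of the same fibroblasts, went from 0 in both to 243 and 274 CPM. The ratio of Gpx3 to Inmt was 0.645 and 0.635 in fibroblast-like cells at pnd60, and 0.906 and 0.623 in B cell-like and 0.700 and 0.716 in T cell-like cells. Free RNA of fibroblasts can give such counts to any droplet, and its part in the Gpx3 and Sod3 counts of classes outside the stroma was not tested, so these counts are not read as expression by those cells. Different clusters also held most of the type II-like, general capillary endothelial-like and myofibroblast-like cells at the 2 ages.

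Among the lists around the members, the enzymes that make superoxide or peroxide were higher at pnd60 in 8 of 9 genes in both air and hyperoxia, where 31.4% and 35.3% of all genes were higher and 17% and 17.4% lower. Aox3 was at 10.3 and 94.5 CPM in air (3.20) and Xdh, xanthine dehydrogenase, at 21.7 and 159 (2.88), while the phagocyte oxidase genes Cybb (0.997) and Ncf1 (1.55) and the oxidase Nox4 (1.28) had smaller ratios. The other members of the enzyme families went the other way, with 4 of 6 lower in air and in hyperoxia, such as Prdx2 from 365 to 111 CPM (-1.72) and Prdx4 from 112 to 25.1 (-2.16) in air. These are values over all cells, and erythroid-like cells were 26.2% of cells in air pnd7 and 0.0227% in air pnd60. The part of this shift in the Prdx2 and Prdx4 ratios was not tested. Of the 16 partner genes with enough counts in air 3 were higher and 5 lower, among them Gclc at 69.9 and 269 CPM (1.95) and Txn1 at 515 and 309 (-0.73). Of the 6 genes of selenoprotein synthesis 2 were higher and none lower in both gases, a share of higher genes near that of all genes. Selenop, the plasma carrier of the selenium that glutathione peroxidases need, was at 334 and 546 CPM in air (0.71).

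Across the 68 sums of a library and a class, which share libraries and depth, the genes most like each member in log CPM were named, as a description. Sod3 followed the matrix genes Ogn (Pearson r = 0.94), Crispld2 (0.93) and Prelp (0.92), and Gpx3 followed Inmt (0.88), Pcolce2 (0.86) and Sod3 (0.86). Gpx1 followed the myeloid genes Csf2ra (0.87), Spi1 (0.86) and Prkcd (0.86), and Cat followed Cbr2, Pfkfb2 and Atp7b (0.82 each). Prdx5 was most like Cebpb (0.83), Prdx6 like Trp53bp2 (0.85), Prdx1 like Dbi (0.82), Sod1 like Ids (0.81), Gpx4 like Krt19 (0.71) and Sod2 like Vapa (0.71). These lists depended on the measure. By Spearman rank correlation the first gene stayed the same for Cat, Gpx3 and Prdx1 only. For the other members it changed, to Mgp for Sod3 (0.90), Sort1 for Gpx4 (0.69) and Ptpn13 for Prdx6 (0.69), for example. Between members the highest values were 0.86 for Sod3 with Gpx3, 0.69 for Sod2 with Prdx1, and 0.63 for Gpx1 with Prdx5 and for Gpx4 with Prdx6. The lowest was -0.55 for Gpx3 with Prdx1.

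On GRCm38 the members lie apart on 10 chromosomes. Sod1 is at chr16:90220762-90226333, Sod2 at chr17:13007839-13018119 and Sod3 at chr5:52363804-52369738. Cat is at chr2:103453904-103485153, Gpx1 at chr9:108339080-108340342, Gpx3 at chr11:54902854-54910387 and Gpx4 at chr10:80047166-80056439. Prdx1 is at chr4:116685599-116700000, Prdx5 at chr19:6906697-6910106 and Prdx6 at chr1:161240112-161251210. Counting may have split reads of Gpx4 and Prdx6 with their near-identical pseudogenes and relatives such as Prdx6b, and Prdx5 and Prdx1 overlap the neighbouring genes Trmt112 and AV051173, so these values carry that uncertainty.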

How the data were processed

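The deposited values were raw unique molecular counts per feature and barcode, which the authors made with Cell Ranger (software version 3.1.0 in the matrix headers) on mm10. The gene annotation is not given in the sources used here. Seurat 3.2.1 is named in the submitters' processing notes. Per the labels, each of the 5 libraries was 1 condition, so no test was made.

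Cells with 700 to 8000 genes and under 5% of counts in 2 mitochondrial rRNAs were kept (13200). They were clustered with scanpy 1.11.5 and leidenalg 0.10.2 (50 components, 21 neighbours, resolution 2, no integration), leaving the genes described out of the 2000 variable genes. Of 55 clusters, 6 (2.14% of cells) stayed unnamed. A class name needed at least 3 markers raised 2-fold, a limit set after the clusters were seen. Scrublet called 0.0433% to 3.28% of cells doublets, at most 0.321% in both unsorted pnd7 libraries, so it did little there, and calls were left in. At most 4 barcodes were shared between any pair of libraries.

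Counts were summed by library and by class and given as CPM with exact Poisson intervals, and ratios with binomial intervals, from Python 3.11.15 and scipy 1.17.1. A level of 0 was set to 3 counts for a ratio. A ratio was called at 1.5-fold, over genes with at least 100 counts in both libraries together, or 20 within a class of at least 20 cells in each. The ratio intervals and the thinning were tried on simulated counts that held counting error only. Clustering, class names and the spread between libraries were not simulated. The members and the lists around them were chosen with earlier results of these data known. All 10 members are named, then listed partner genes that passed 1.5-fold in a comparison or had the highest or lowest level of their list, and the most similar genes in log2(CPM + 10). Gsr, and Prdx2, Prdx4 and Cybb within a class, are given for comparison.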

Additional observations from a re-analysis of the deposited data

Results flagged for a closer look

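Members whose ratio of hyperoxia to air had opposite signs at pnd7 and pnd60, each with an interval that left out 0, were looked at again. The difference between the ages was not tested, since each condition was 1 library. Over all cells, Gpx3 had a log2 ratio of 0.49 at pnd7 and -0.086 at pnd60. Fibroblast-like cells, its main source, held 9.07% of all counts in air pnd7 and 12.4% in hyperoxia pnd7. The part of this gap in the Gpx3 ratio was not tested. Prdx6 over all cells was at 0.12 and -0.092. In type II-like cells Sod1 was at -0.41 at pnd7 and 0.10 at pnd60. In myofibroblast and smooth muscle-like cells Gpx3 was at 0.63 and -1.17, the latter on 22 and 20 cells.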

How the results depend on the processing

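No paired analysis was possible because no condition had more than 1 library and the labels number no replicates. The alternative of adding further copies of a gene was not run, since no member had such a feature. Over the alternatives 4428 values of a single member stayed within the counting interval of the reported value, 189 of them with the other sign, and 505 moved further, of which 97 changed sign from a reported value within 1.5-fold (Gpx1 over all cells with age among them). A further 17 changed sign from a reported value past 1.5-fold. Among the 505 is also the count of most similar genes, which moved under Spearman rank correlation. The median log2 ratio of the members moved in these cases. In hyperoxia against air at pnd60 it was 0.072 with all deposited barcodes, 0.059 as a mean of each cell's CPM and 0.069 with cells thinned to 1000 counts. In sorted cells against hyperoxia it was 0.49 by the median of ratios and 0.46 thinned, the latter on the 8 members with enough counts. Within classes it was 0.50 under both, thinned again on 8 members. Against air it was 0.60 by the median of ratios, 0.73 thinned on 8 members, and 0.43 within the dividing cluster, also on 8. So these values also differ in the set of members. For pnd60 against pnd7 in air it was 0.74 with all barcodes, 0.071 by the median of ratios, -0.19 as a mean of each cell's CPM and -0.19 thinned, and in hyperoxia 0.75, -0.030, -0.15 and -0.069 in that order. The scaling within a class, the dividing cluster and a minimum of 50 cells a class were chosen after seeing the data.

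The 17 were these. With cells classed by their own markers, Gpx1 in B cell-like cells at pnd7 was at -0.26 (and -0.10 thinned), and at pnd60 Sod3 in alveolar macrophage-like cells was at 2.54, Sod2 in large vessel endothelial-like cells at -0.31 and Prdx6 in pericyte-like cells at -0.51. Prdx6 in sorted alveolar macrophage-like cells against air was at -0.64 thinned. With age, all barcodes gave 0.079 for Prdx5 in air and 0.062 for Prdx1 in hyperoxia, and thinning gave -0.012 for Gpx1 in pericyte-like cells of air. In hyperoxia with age, own markers gave -0.17 for Cat and -0.91 for Prdx6 in pericyte-like cells, thinning gave 0.81 for Sod2 in classical monocyte-like cells, -0.93 for Sod3 in B cell-like cells, 1.86 for Gpx1 in aerocyte endothelial-like cells, and 0.44 for Prdx5 and -0.27 for Prdx6 in pericyte-like cells, and scaling within the class gave -0.075 for Cat in B cell-like cells. The cause was not tested. With 1 library a condition, the spread between animals is unknown, and most within-class ratios of the small classes rest on few counts.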
